A study of Mus musculus with 12 samples.

Results

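The comparison described here set mouse keratinocytes transduced with deltaNp63alpha against keratinocytes transduced with beta-galactosidase, both held in high calcium. It covers the 6 two-colour spotted cDNA arrays of that calcium level, and its members are the probes with a usable value in at least 2 of the 3 repeats. By this rule 7682 of the 9558 probes were members, 2015 of them with all 3 repeats and 5667 with 2. Of the probes left out, 1470 had 1 repeat and 406 had none. A single gene symbol was available for 6037 of the member probes, which stand for 5605 genes. Another 388 carried several symbols, and 1257 (16.4%) were not listed in the platform annotation and are counted here without a name.

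The cells were primary skin keratinocytes of C57Bl/6NCr mice, wild type as far as the labels say. Both groups received an adenovirus, one carrying deltaNp63alpha and the other, the control, carrying beta-galactosidase, and RNA was taken 41 h later. Calcium was raised from 0.05 mM to 0.12 mM for the last 24 h in both groups, so each array compared the viruses within differentiating cultures and carried no measure of the calcium effect. A further 6 arrays with the same design came from cells kept in 0.05 mM calcium and serve only as a side comparison. Each repeat was hybridised as a dye swap: on the forward array deltaNp63alpha RNA carried Cy5, and on the reversed array it carried Cy3. The series design calls the arrays technical repeats and no label ties a repeat to an animal or culture, so the p-values may measure technical spread alone. Ratios carry no level, so the identity of the cells could not be checked by whether keratinocyte markers were present.

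DeltaNp63alpha is the main p63 protein of basal keratinocytes. It belongs to the p53 family, binds the same kind of DNA element as p53 and p73, lacks their N-terminal transactivation domain, and is known both to maintain the proliferative basal state and to oppose some p53 family targets. A rise in extracellular calcium drives cultured mouse keratinocytes towards the spinous and granular layers: they switch on keratin 10, then filaggrin and the small proline-rich and late envelope proteins, assemble junctions and leave the cell cycle. The genes below are therefore ordered from the differentiation programme, through its proteases, junctions and secreted factors, to p53 family targets and the rest.

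Every value is a log2 ratio of deltaNp63alpha over beta-galactosidase, negative where deltaNp63alpha RNA gave the lower signal. A pair value is the forward value minus the reversed value, divided by 2, and the log2 ratio of a probe is the mean of its pair values with the standard error (SE) from limma. Limma draws the variance of each probe towards a value common to all probes. That common value had 11.5 degrees of freedom, against a median of 2 from a probe's own pairs. The low calcium pairs also enter the variance, so an SE is not the spread of a probe's own high calcium pairs. The base of the deposited logarithm is not stated and was taken as 2, so every fold size rests on that reading. A probe is said to fall or rise only where its Benjamini-Hochberg adjusted p over all 7682 members was under 0.05. The dye order of the deposited ratio is not stated. It was read as Cy5 over Cy3, which makes the directions likely and not settled: the basis is the usual order of such ratios and the title of the series, where maspin is called a negatively regulated target, so the sign of maspin is no independent evidence. Under the opposite order the same 142 probes would be called, the 85 falls given here as rises and the 57 rises as falls. A separate matter is whether reversed arrays are turned at all: with the deposited signs left unturned, limma called 0 members (1364 at an unadjusted p under 0.05), and 72 of the 142 probes kept their direction.

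In high calcium 85 probes fell and 57 rose, 142 of 7682 members in all (1.85%, with 1.11% falling and 0.742% rising). The counts called in each gene list below stand beside this 1.85%. Those lists were written with earlier results of these data known and were not tested as sets. Of the 85 probes that fell 74 (87.1%) had a single symbol, against 78.6% of all members, and stood for 73 genes. These falls were led by Klk7, Ptgr1, Flg, Klk5, Defb1, Sprr1a, Krt10 and Serpinb2. The rises were mostly without a name: 36 of the 57 (63.2%) were unlisted, against 16.4% of all members, and 18 probes named 17 genes, led by Usp19. Falls had a median log2 ratio of -1.01 (range -2.26 to -0.65) and rises a median of 1.14 (0.68 to 1.88), while the median of all members was 0.01. At an unadjusted p under 0.05 there were 926 members. In bulk RNA, fewer cells of a type and less RNA per cell cannot be told apart.

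These counts moved with the repeats and the model. The labels also number the experiments in 2 separate ranges of experiment IDs, and the second holds repeat 3 of high calcium and repeats 2 and 3 of low calcium. With the range as a block 146 of 7623 probes were called, 123 of them shared with the 142; what the ranges stand for is not stated. Without high calcium repeat 1 limma called 34 of the 2304 probes still measured, and without repeat 2 it called 30 of 2063; in both fits all probes shared 1 variance. No member passed on forward arrays alone, with the lone array of an incomplete pair kept, or with a trended and robust variance, and 1 passed on reversed arrays alone and 1 with arrays scaled to the same spread.

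**Figure D1:**
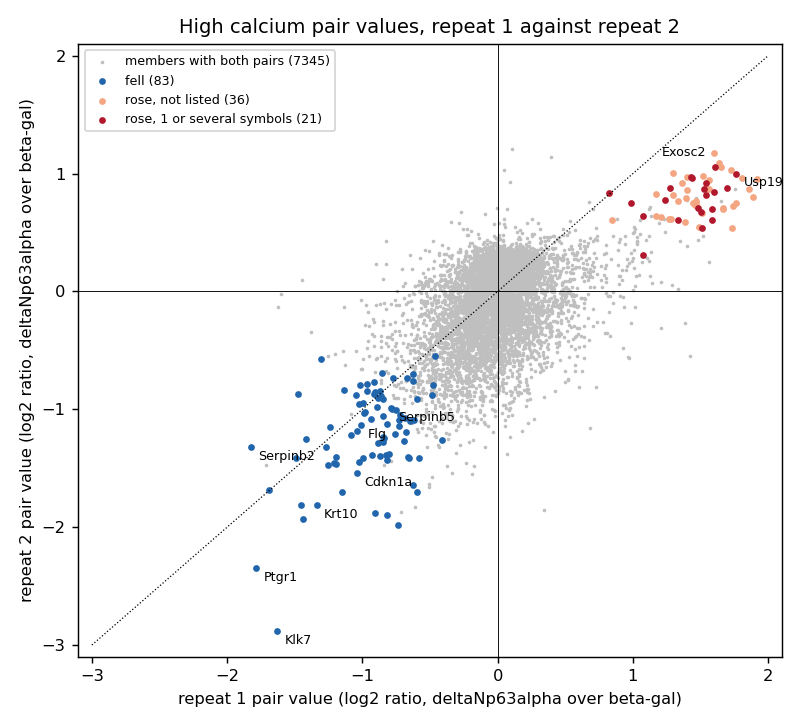
Pair values (log2 ratio, deltaNp63alpha over beta-galactosidase) of repeat 1 on the horizontal axis and repeat 2 on the vertical axis for the 7345 members measured in both; blue points fell, orange (not listed) and red points rose, and the dotted line marks equal values. Most blue points lie below the dotted line, larger in repeat 2, and 56 of the 57 rises lie below it too, larger in repeat 1.

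The repeats were unequally filled. Repeats 1 and 2 gave pair values for 7619 and 8770 probes and repeat 3 for 2460, so 5330 members rest on repeats 1 and 2 alone. Across probes, which share arrays and labelling and are not independent, the pair values of repeats 1 and 2 had a Pearson correlation of 0.50 (7345 probes), those of repeats 1 and 3 of 0.33 (2063 probes) and those of repeats 2 and 3 of 0.22 (2304 probes). The mean of the forward and reversed values as deposited, which does not turn with the dye, correlated more strongly over the same probes. Its correlations were 0.64, 0.54 and 0.48 in that order. Its SD was 0.38, 0.48 and 0.80 in repeats 1 to 3, against 0.33, 0.38 and 0.45 for the pair values. Agreement between repeats is therefore not by itself agreement on the deltaNp63alpha effect. The called probes split by repeat in a direction-dependent way. Rises were larger in repeat 1 than in repeat 2 for 56 of 57 probes, with median pair values of 1.49 and 0.79. Falls were larger in repeat 2 for 63 of the 83 probes measured in both, with medians of -0.88 in repeat 1 and -1.15 in repeat 2. Over all members measured in both, the larger value was in repeat 2 for 4809 of 7345.

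Within a pair, a probe that follows the RNA and not the dye lies on opposite sides of 0 on the 2 deposited arrays. Of the 30 falling probes measured on all 6 arrays, 22 had the same sign on all 6 after turning, and of the 12 such rising probes 10 did, against 118 of the 2015 members with all 6 arrays (5.86%); the calls rest on these same arrays, so this is a description and no support for them. The named ones among them were Flg, Defb1, Gsdmc2, Lce1m, Sptssa, Anxa1, Tmem45a, Nktr, Mthfd2, Klf6, Tmcc3, Nasp, Col4a5, Rtkn, D1Pas1, Ddhd1, Jcad and Skap2 among falls and Usp19, A830082K12Rik, Brip1os, Aven and Birc6 among rises. Repeat 3 had the most signal that does not turn with the dye: its forward and reversed arrays, as deposited, correlated at 0.535 across 2460 probes, against 0.127 over 7619 probes in repeat 1 and 0.255 over 8770 in repeat 2; these points share an array pair, its labelling and its print.

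**Figure D2:**
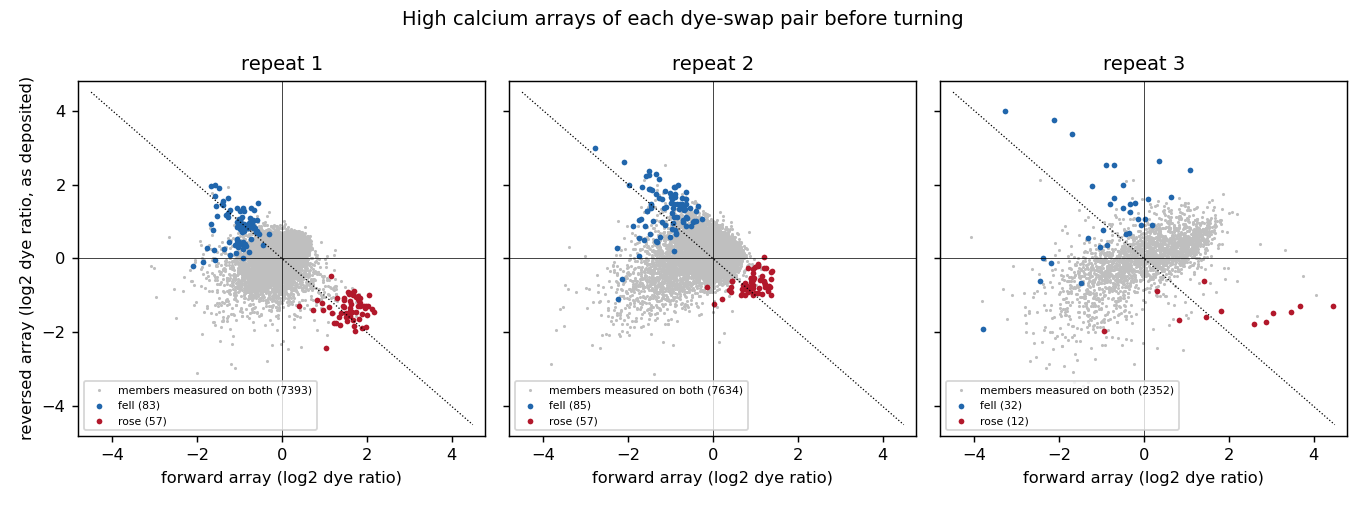
Deposited log2 dye ratio on the forward array (horizontal) against the reversed array (vertical) for each high calcium repeat, before turning; grey points are members measured on both arrays, blue points fell, red points rose, and the dotted line marks equal size with opposite sign. The called probes lie along the dotted line in repeats 1 and 2, while in repeat 3 the grey cloud runs mostly along the other diagonal.

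Among the gene lists, that of the cornified envelope and terminal differentiation had the largest share of falls. It was chosen with earlier results of these data known, so its counts are a description. Of 16 probes tested (15 of the 16 listed genes on the arrays), 8 fell (50%) and none rose, against 1.85% called over all members. All 16 had a log2 ratio below 0, against 3736 of 7682 members. The median was -1.13, against 0.01 over all members. With arrays scaled to the same spread the 16 stayed below 0 (median -1.12); without repeat 3, 14 of 16 were below 0 and the median was -0.64. The 8 probes stood for Klk7 (2 probes), Klk5, Flg, Sprr1a, Krt10, Crct1 and Lce1m. The other 8 probes, for Lce1l, Krt77, Krt80, Trex2, Tgm5, Tgm3, Lor and Ppl, ranged from -1.06 to -0.13 and did not pass.

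Members that moved together invite a look at their start sites. The promoters of falling differentiation genes and of the p53 target Cdkn1a are shown because 3 kinds of element known from such genes were searched there on both strands: the AP-1 element TGANTCA, the TATA box TATAAA and the p53 family half-site by its usual consensus, of which a full p53 family element holds a pair. Each window, from RefSeq with coordinates of GRCm38.p6, runs 5′ to 3′ from 250 bases before to 50 bases after the annotated start, with matches in capitals. Klk7 lies at chr7:43811044-43811343 on the plus strand, Krt10 at chr11:99389315-99389614 on the minus strand, Sprr1a at chr3:92485832-92486131 on the minus strand and Cdkn1a, of which the first of 2 listed starts is shown, at chr17:29090729-29091028 on the plus strand.
Klk7: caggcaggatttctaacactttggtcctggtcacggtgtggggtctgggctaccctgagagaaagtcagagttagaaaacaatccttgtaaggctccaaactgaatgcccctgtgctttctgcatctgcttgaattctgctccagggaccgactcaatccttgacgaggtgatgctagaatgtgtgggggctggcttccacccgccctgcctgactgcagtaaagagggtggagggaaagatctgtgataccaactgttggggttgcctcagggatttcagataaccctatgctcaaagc
Krt10: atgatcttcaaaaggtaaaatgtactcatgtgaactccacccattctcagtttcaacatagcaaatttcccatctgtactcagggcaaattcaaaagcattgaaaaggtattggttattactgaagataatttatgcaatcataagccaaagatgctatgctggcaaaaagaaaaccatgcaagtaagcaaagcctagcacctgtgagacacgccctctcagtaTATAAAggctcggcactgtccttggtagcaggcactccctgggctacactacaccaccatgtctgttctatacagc
Sprr1a: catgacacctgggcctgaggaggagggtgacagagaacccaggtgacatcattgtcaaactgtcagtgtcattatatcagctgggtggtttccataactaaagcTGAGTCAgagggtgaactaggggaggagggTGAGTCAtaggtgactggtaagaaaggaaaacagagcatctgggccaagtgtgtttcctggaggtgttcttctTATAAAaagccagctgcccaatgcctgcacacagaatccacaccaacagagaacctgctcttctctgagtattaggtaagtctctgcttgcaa
Cdkn1a: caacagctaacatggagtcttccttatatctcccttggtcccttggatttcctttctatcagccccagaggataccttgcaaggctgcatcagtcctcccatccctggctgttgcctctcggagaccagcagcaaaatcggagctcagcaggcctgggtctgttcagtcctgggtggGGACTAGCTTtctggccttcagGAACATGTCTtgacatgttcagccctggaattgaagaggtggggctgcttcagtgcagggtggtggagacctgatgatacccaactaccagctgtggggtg
Sprr1a had AP-1 elements beginning at -146 and -116 and a TATA box at -43, Krt10 had a TATA box at -26, and Cdkn1a had p53 family half-sites at -73 and -51, all counted from the start. The Cdkn1a matches are not adjacent, and half-sites that depart from the consensus were not marked. Whether either match belongs to a full element was not tested. The windows of Klk7 and Klk5 (chr7:43842019-43842318, plus strand) held no match, which says only that these letters are not in those windows. Of all 32851 promoters in the table, 7.81% held an AP-1 element, 13.62% a TATA box and 8.36% a p53 family half-site. Among 5737 promoters of member genes the shares were 5.91%, 9.29% and 7.02%. Among the 82 promoters found for 59 of the 73 genes that fell they were 17.07%, 20.73% and 8.54%, and among the 19 promoters of 14 of the 17 genes that rose, 10.53%, 5.26% and 5.26%. These shares are descriptions with no test, and genes with several starts enter more than once.

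Krt10, the type I keratin that marks the first suprabasal layer, read -1.52 and -1.15 on the forward and reversed arrays of repeat 1 and -1.68 and -1.94 on those of repeat 2. All 4 arrays were low and close together, and repeat 3 gave no value. Krt10 fell 2.98-fold (log2 ratio -1.57 ± 0.20 SE, n = 2 pairs; limma adjusted p = 0.00298). Krt5, the basal keratin, did not pass: its pair values were -0.28 in repeat 2 and 0.50 in repeat 3, for a log2 ratio of 0.11 ± 0.22 (limma adjusted p = 0.879), and its sign turned to -0.28 with arrays scaled to the same spread.

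Flg, which encodes the precursor of the keratin-aggregating protein filaggrin of the granular layer, was measured on all 6 arrays. It read -0.98 and -1.04 in repeat 1, -0.65 and -1.62 in repeat 2, and -3.27 and -4.00 in repeat 3. Every array was below 0, and both arrays of repeat 3 lay far under the others. Flg fell 3.80-fold (-1.93 ± 0.38 SE, n = 3 pairs; limma adjusted p = 0.0180). Without repeat 3 the value was -1.07 and no longer passed (limma adjusted p = 0.0661). Lce1m, a late cornified envelope gene, had the same order, with pair values of -0.48, -0.88 and -2.54 and a log2 ratio of -1.30 ± 0.31 (limma adjusted p = 0.0442). It did not pass without high calcium repeat 3 (-0.68; limma adjusted p = 0.223) or without low calcium repeat 2 (-1.30; limma adjusted p = 0.0576).

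Sprr1a, a small proline-rich precursor of the envelope, read -1.28 and -1.63 in repeat 1, -1.34 and -2.28 in repeat 2 and -1.06 on the lone forward array of repeat 3. It fell 3.10-fold (-1.63 ± 0.25 SE, n = 2 pairs; limma adjusted p = 0.00536). Crct1, a cysteine-rich gene of the epidermal differentiation complex, fell 2.69-fold (-1.43 ± 0.21 SE, n = 2 pairs), with array values from -0.92 to -2.15 in the pairs and -3.23 on the lone reversed array of repeat 3. Lor, which encodes the envelope protein loricrin, behaved differently within itself. Its 6 arrays ran from 0.51 to -1.59, the pair values were 0.20, 0.16 and -0.82, and the log2 ratio of -0.15 ± 0.19 (limma adjusted p = 0.813) turned to 0.18 without repeat 3.

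Proteases that cut corneodesmosomes to shed the outer layer were among the falls. Klk7 was represented by 2 probes, and both fell. The first probe read -1.57 and -1.69 in repeat 1, -2.77 and -3.0 in repeat 2 and -2.09 on the forward array of repeat 3. Its 4.78-fold fall was the largest of all members (-2.26 ± 0.26 SE, n = 2 pairs; limma adjusted p = 0.00197). The second probe fell 2.30-fold (-1.20 ± 0.20 SE, n = 2 pairs; limma adjusted p = 0.0113), about 1 log2 unit less, so the gene's size of change is uncertain while the sign was shared by all 9 array values of the 2 probes. Klk5, the kallikrein that activates Klk7, read -1.41 and -1.48 in repeat 1, -1.51 and -2.36 in repeat 2 and -2.28 on the reversed array of repeat 3, and fell 3.22-fold (-1.69 ± 0.27 SE, n = 2 pairs; limma adjusted p = 0.00536).

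Beyond these kallikreins no probe of the list of desquamation proteases and inhibitors passed. Its 13 probes included the 3 called Klk7 and Klk5 probes, which also belong to the list above. Their median was -0.33, against 0.01 over all members, and 12 of the 13 were below 0. Ctsd, the lysosomal aspartic protease cathepsin D, was below 0 on all 6 arrays but did not pass (-0.60 ± 0.17 SE; limma adjusted p = 0.120). Cst3, the cysteine protease inhibitor cystatin C, was the one probe above 0, at 0.31. Klk8 (-0.51), Klk12 (-0.28) and Klk6 (-0.11), other epidermal kallikreins, did not pass.

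**Figure D3:**
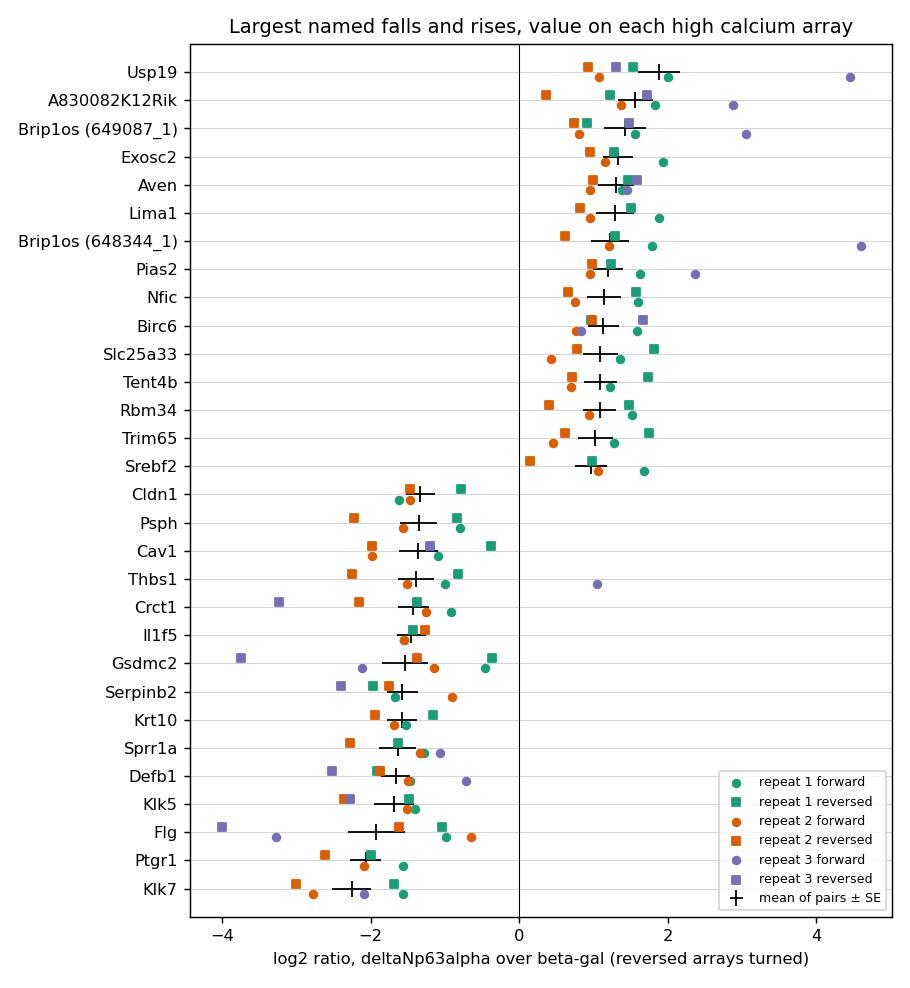
Turned log2 ratio on each high calcium array for the 15 largest named falls and the 15 largest named rises; colours mark the repeat, circles are forward and squares reversed arrays, and black crosses are the mean of pairs with its SE. Among the falls 1 value lies above 0, that of Thbs1 on the forward array of repeat 3, and among the rises the repeat 2 values (orange) are the lowest for most genes.

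Of the antimicrobial peptide and S100 list 2 of 12 probes fell (median of the list -0.27). Defb1, a beta-defensin made by surface epithelia, read -1.47 and -1.91 in repeat 1, -1.49 and -1.87 in repeat 2, and -0.71 and -2.52 in repeat 3. The pair values of -1.69, -1.68 and -1.61 were nearly equal, although the single arrays of repeat 3 were far apart. Defb1 fell 3.17-fold (-1.66 ± 0.19 SE, n = 3 pairs; limma adjusted p = 0.00154). S100a10, the partner of annexin A2, fell 2.16-fold (-1.11 ± 0.19 SE, n = 2 pairs). S100a9 (-0.66) and S100a6 (-0.59), calcium-binding proteins of stressed and proliferating cells, did not pass, and Camp, the cathelicidin, was at 0.32.

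In the interleukin-1 family 2 of 10 probes fell, while the median of the list was 0.07. Il1f5, the skin antagonist of the interleukin-36 receptor, read -1.56 and -1.42 in repeat 1 and -1.55 and -1.27 in repeat 2, a tight set, and fell 2.73-fold (-1.45 ± 0.19 SE, n = 2 pairs; limma adjusted p = 0.00338). Il33, an alarmin of epithelial nuclei, read -0.75, -1.11, -1.70 and -1.08 on the same 4 arrays and fell 2.23-fold (-1.16 ± 0.23 SE, n = 2 pairs; limma adjusted p = 0.0208). Its value was -0.71 with the experiment ID range as a block, where it lost its call (limma adjusted p = 0.273). Il18, another member released by inflammasomes, did not pass at -0.62; it was at -0.32 without repeat 3 and passed with the experiment ID range as a block (-0.76; limma adjusted p = 0.0288), and Il1r1, the interleukin-1 receptor, was at 0.29.

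Among 17 probes for desmosomes and adherens, tight and gap junctions 2 fell (median -0.14). Cldn1, the claudin on which the epidermal tight junction barrier depends, read -1.62 and -0.78 in repeat 1 and -1.46 and -1.47 in repeat 2 and fell 2.52-fold (-1.33 ± 0.20 SE, n = 2 pairs; limma adjusted p = 0.00536). Cdh1, E-cadherin, fell by 0.70 (± 0.16 SE, n = 3 pairs; limma adjusted p = 0.0477), close to the threshold. It lost its call without high calcium repeat 1 (-0.62; limma adjusted p = 0.454), without repeat 2 (-0.61; limma adjusted p = 0.475) and with the experiment ID range as a block (-0.62; limma adjusted p = 0.0740). Its catenin partners Ctnnb1 (-0.69) and Ctnna1 (-0.50) and the connexin Gja1 (-0.81; limma adjusted p = 0.0747) did not pass, although Gja1 did at the same value without low calcium repeat 3 (limma adjusted p = 0.0493). Gjb2, another connexin, lay on the other side at 0.60 (limma adjusted p = 0.191).

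Of 17 probes for basal keratinocyte genes 2 fell, with a median of -0.14 and 8 probes above 0. Sdc1, a cell surface heparan sulphate proteoglycan, read -0.74 and -0.95 in repeat 1 and -0.99 and -1.49 in repeat 2 and fell 2.06-fold (-1.04 ± 0.20 SE, n = 2 pairs; limma adjusted p = 0.0196). Itgb1, the beta-1 integrin subunit that anchors basal cells, had pair values of -0.87, -1.39 and -0.52 and fell 1.90-fold (-0.93 ± 0.18 SE; limma adjusted p = 0.0179), with 1 of its 6 arrays, the forward array of repeat 3, above 0 at 0.63. It lost its call without repeat 2 (-0.69; limma adjusted p = 0.273). The hemidesmosome genes Itgb4 (-0.26), Col17a1 (0.22), Itga6 (0.06) and Plec (0.02) and the basement membrane chain Lamb3 (0.13) did not pass, nor did Tfap2c, an AP-2 factor, at 0.49.

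Annexins, which bind membrane phospholipids when calcium rises, had 2 falls among 10 probes and a median of -0.42. Anxa1, an envelope-associated annexin, was low on all 6 arrays at -0.94 and -1.11, -0.54 and -1.38, and -0.90 and -2.53 in repeats 1 to 3. It fell 2.35-fold (-1.23 ± 0.17 SE, n = 3 pairs; limma adjusted p = 0.00220). Anxa8 fell by nearly the same (-1.24 ± 0.20 SE, n = 2 pairs; limma adjusted p = 0.0107). Anxa3 (-0.69) and 1 probe of Anxa2 (-0.64) did not pass, and the other Anxa2 probe read 0.22, so the probes of that gene disagreed.

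The targeted gene and its family came out without a call. The single Trp63 probe read -0.77 and -0.41 in repeat 1, 0.002 and -1.02 in repeat 2 and -1.71 on the lone forward array of repeat 3. No array placed it clearly above 0, and its mean over the pairs was -0.55 (± 0.25 SE, n = 2; limma adjusted p = 0.398), or 0.07 with the experiment ID range as a block. Whether this probe detects the viral transcript is not known here, so it neither checks the labels nor gives the level of the transgene; if it does detect it, the sign of this uncalled value is opposite to what the dye order chosen here would give. Trp73, the p53 family member named in the series title, read 0.29, 0.20, 0.42 and 0.12 in repeats 1 and 2 and -0.76 on the forward array of repeat 3, and did not pass (0.26 ± 0.18 SE; limma adjusted p = 0.675).

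Of 25 probes for p53 family members and their targets 3 fell (median -0.08): Cdkn1a, Thbs1 and Serpinb5. Cdkn1a encodes p21, which stops the cell cycle. It read -0.57 and -1.51 in repeat 1 and -1.33 and -1.75 in repeat 2 and fell 2.45-fold (-1.29 ± 0.20 SE, n = 2 pairs; limma adjusted p = 0.00536). Serpinb5, maspin, read -1.06 and -0.51 in repeat 1 and -0.68 and -1.30 in repeat 2 and fell 1.85-fold (-0.89 ± 0.19 SE, n = 2 pairs; limma adjusted p = 0.0290). Thbs1, the secreted matrix protein thrombospondin, read -0.99 and -0.82 in repeat 1 and -1.51 and -2.25 in repeat 2 and fell 2.63-fold (-1.39 ± 0.24 SE, n = 2 pairs; limma adjusted p = 0.0112).

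All 3 p53 family targets shared an exception. In repeat 3 each was measured on the forward array only, and there each was positive: 1.17 for Cdkn1a, 1.47 for Serpinb5 and 1.05 for Thbs1. With that array kept, the log2 ratios were -0.47, -0.10 and -0.58 and none passed (limma adjusted p = 0.899, 0.966 and 0.870). Of the 10 falls measured in repeat 3 on the forward array alone, 4 had the opposite sign there, the fourth being Fam25c (0.94), named after its values were seen; over all members 335 of 774 did. With the experiment ID range as a block the 3 targets were at -1.16, -0.72 and -1.03 and did not pass (limma adjusted p = 0.0576, 0.180 and 0.107). Gadd45b, a stress-response gene, did not pass at -0.77 (limma adjusted p = 0.0717), but did at the same value without low calcium repeat 2 (limma adjusted p = 0.0440) or repeat 3 (limma adjusted p = 0.0484). Mdm2, the negative regulator of p53, did not pass at -0.51, and Sfn, 14-3-3 sigma, was at 0.21.

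Cell cycle inhibitors and G1 regulators had 2 falls among 14 probes (median -0.19). Beside Cdkn1a, Cdkn2b, which encodes p15, read -1.25 and -0.44 in repeat 1 and -1.62 and -0.49 in repeat 2, larger on both forward arrays, and fell 1.93-fold (-0.95 ± 0.19 SE, n = 2 pairs; limma adjusted p = 0.0259). Among proliferation genes none of 31 DNA replication probes passed (median 0.14; 24 of 31 above 0), and of 35 mitosis probes 1 did, Ube2c, which fell; at 1.85% called over all members, these counts say nothing particular of proliferation genes. Ube2c, an enzyme that passes ubiquitin to targets of the anaphase-promoting complex, read -0.67, -1.02, -0.90 and -1.66 on the arrays of repeats 1 and 2 (-1.06 ± 0.20 SE; limma adjusted p = 0.0201), while the median of the mitosis list was 0.11. Nasp, a histone chaperone of replicating cells, was low on all 6 arrays (-0.85 ± 0.18 SE, n = 3 pairs; limma adjusted p = 0.0222), and its adjusted p was 0.0553, 0.163 and 0.0552 without high calcium repeats 1, 2 and 3.

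Serpins, the family that holds maspin, had 2 falls among 14 probes and a median of 0.04. Serpinb2, plasminogen activator inhibitor 2, which is also linked to the envelope, read -1.67 and -1.97 in repeat 1, -0.90 and -1.75 in repeat 2 and -2.40 on the reversed array of repeat 3. All 5 arrays were low, and Serpinb2 fell 2.97-fold (-1.57 ± 0.21 SE, n = 2 pairs; limma adjusted p = 0.00238). Serping1, the complement C1 inhibitor, did not pass at -1.08 ± 0.43 (limma adjusted p = 0.276). Its arrays of repeat 3 read -7.36 and 0.91, against -0.70 to 0.32 in the other repeats. Serping1 passed without repeat 1 (-1.48, limma adjusted p = 7.48e-06) and without repeat 2 (-1.76, limma adjusted p = 8.45e-09). In those 2 fits all probes shared 1 variance, so the wide spread of its own pairs did not enter these p-values. It also passed with the experiment ID range as a block (-1.62, limma adjusted p = 0.000609).

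Of 27 probes for matrix, proteases and migration 4 fell (median -0.21): Thbs1, Cav1, Adamts1 and Col4a5. Cav1, the coat protein of caveolae, read -1.10 and -0.37 in repeat 1, -1.98 and -1.99 in repeat 2 and -1.20 on the reversed array of repeat 3, and fell 2.57-fold (-1.36 ± 0.26 SE, n = 2 pairs; limma adjusted p = 0.0177), or -1.09 with the experiment ID range as a block (limma adjusted p = 0.144). Adamts1, a secreted metalloprotease, was even across its 4 paired arrays, from -0.79 to -0.98, and fell 1.86-fold (-0.89 ± 0.19 SE; limma adjusted p = 0.0337). Col4a5, a basement membrane collagen chain, was low on all 6 arrays (-0.81 ± 0.19 SE; limma adjusted p = 0.0419) and did not pass without repeat 1 (-0.69; limma adjusted p = 0.270) or repeat 2 (-0.78; limma adjusted p = 0.153). Col4a1 (-0.75), Tnc (-0.63) and Tgfbi (-0.29), other matrix genes, did not pass, and Lamc1 was at 0.29.

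**Figure D4:**
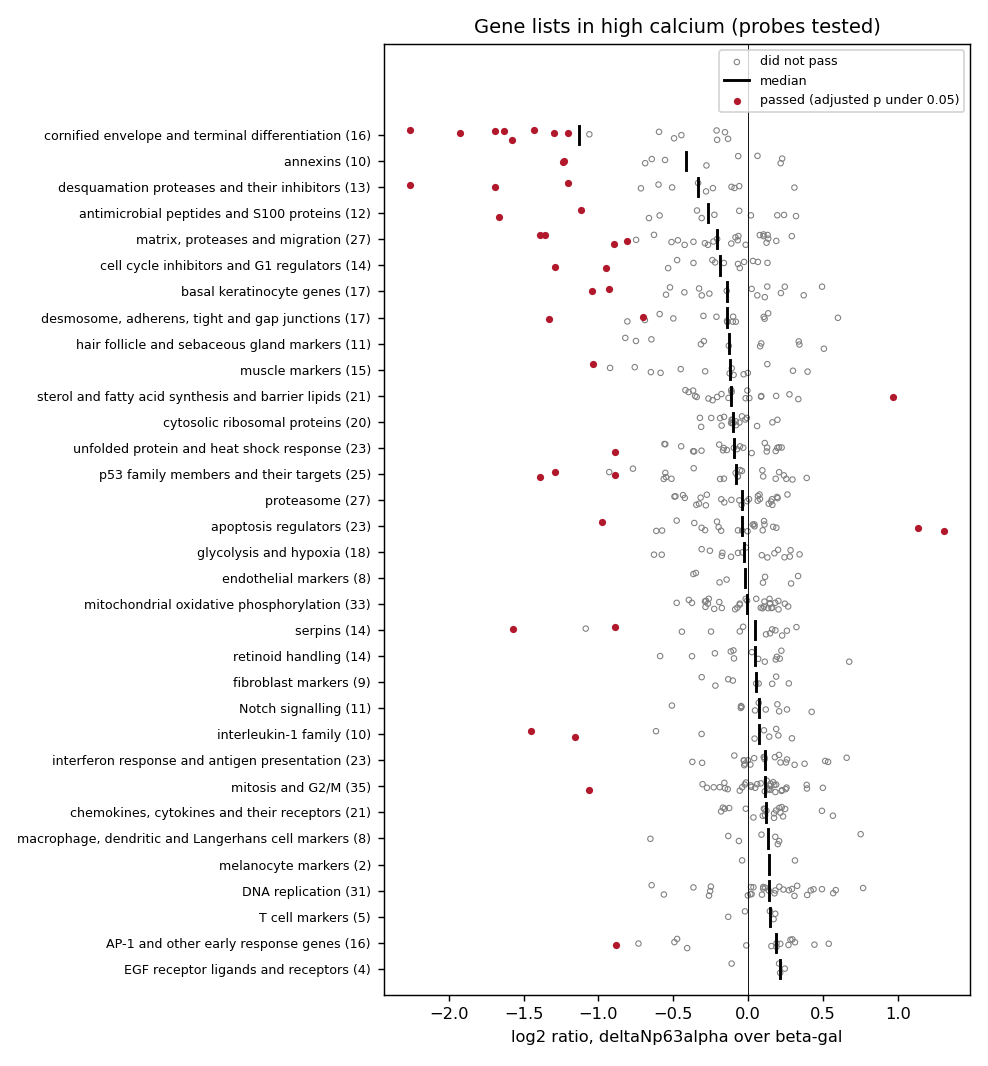
Log2 ratio of every tested probe in 33 gene lists, one row a list with its number of probes in brackets and its median as a black bar; filled points passed (limma adjusted p under 0.05). The cornified envelope row lies wholly left of 0, and the 3 filled points to the right of 0 belong to the sterol and the apoptosis lists.

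Several large falls belonged to none of the lists above. Ptgr1, a reductase of prostaglandins and leukotrienes, read -1.57 and -2.00 in repeat 1 and -2.09 and -2.61 in repeat 2 and fell 4.19-fold (-2.07 ± 0.21 SE, n = 2 pairs; limma adjusted p = 0.00154), whereas a second Ptgr1 probe was at -0.06. Gsdmc2, of the gasdermin family, had pair values of -0.41, -1.26 and -2.93 and a log2 ratio of -1.54 ± 0.31 (limma adjusted p = 0.0180). It did not pass without repeat 3 (-0.84; limma adjusted p = 0.0632), and its second probe was at 0.25. Psph, the last enzyme of serine synthesis, fell 2.56-fold (-1.36 ± 0.25 SE, n = 2 pairs). Mthfd2, a mitochondrial folate enzyme, fell 1.95-fold (-0.96 ± 0.19 SE, n = 3 pairs; limma adjusted p = 0.0196), though repeat 2 (-1.70) was far lower than repeats 1 and 3 (-0.60 each), and without repeat 2 it did not pass (-0.60; limma adjusted p = 0.507).

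Sptssa, a small subunit of the enzyme that starts sphingolipid synthesis, was one of the steadiest falls, at -1.27 and -1.24, -1.12 and -1.82, and -0.80 and -1.46 in repeats 1 to 3 (-1.28 ± 0.17 SE, n = 3 pairs; limma adjusted p = 0.00220). Tmem45a, a membrane protein of the granular layer, fell 2.18-fold (-1.12 ± 0.17 SE, n = 3 pairs; limma adjusted p = 0.00536) with all 6 arrays between -0.63 and -1.97. Nktr, a cyclophilin-like protein, fell 2.02-fold with pair values of -0.97, -0.84 and -1.23 (-1.01 ± 0.15 SE; limma adjusted p = 0.00298). Skap2 (-0.69), Tmcc3 (-0.88), Rtkn (-0.76), Ddhd1 (-0.73), Jcad (-0.71) and D1Pas1 (-0.74) were also low on all 6 arrays and fell by less. Each of these 6 lost its call without high calcium repeat 1 and without repeat 2, with limma adjusted p from 0.0506 (Tmcc3 without repeat 2, at -0.89) to 0.481 (Jcad without repeat 2, at -0.61), and D1Pas1 did so also without low calcium repeat 2 (0.0563) and with the experiment ID range as a block (-0.75; 0.0537). Rtkn, Ddhd1, Jcad and D1Pas1 also did not pass without repeat 3, at -0.69, -0.76, -0.75 and -0.51 (limma adjusted p = 0.0661, 0.0561, 0.0559 and 0.262).

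Other falls, named after their values were seen, included Endou (-1.33), Mid1ip1 (-1.30), Klf10 (-1.11), a transcription factor induced by TGF-beta, Lgals3 (-1.01), the lectin galectin-3, Zfp36l1 (-1.0), an RNA-binding protein that promotes mRNA decay, Cast (-0.94), the calpain inhibitor, and Aldh3b2 (-0.86), an aldehyde dehydrogenase. In the early response list 1 of 16 probes fell, Klf6, a zinc finger factor, at -0.88 ± 0.17 (n = 3 pairs; limma adjusted p = 0.0177) with all 6 arrays below 0. Klf6 did not pass without repeat 2 (-0.78; limma adjusted p = 0.153) or repeat 3 (-0.85; limma adjusted p = 0.0570), and its second probe was at 0.31. Fos was at 0.54 and Fosl2 at -0.73, and neither passed, though Fosl2 did without low calcium repeat 2 (limma adjusted p = 0.0423). In the unfolded protein and heat shock list 1 of 23 fell, Hspa5, the chaperone BiP of the endoplasmic reticulum (-0.89 ± 0.19 SE, n = 2 pairs, limma adjusted p = 0.0370). With 1.85% called over all members, 1 call is no result about the early response list or this one.

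Of 23 apoptosis probes 1 fell and 2 rose. Casp8, the initiator caspase of death receptors, read -1.02 and -0.37 in repeat 1 and -2.26 and -0.27 in repeat 2, larger on the forward arrays, and fell 1.97-fold (-0.98 ± 0.21 SE, n = 2 pairs; limma adjusted p = 0.0323). Aven, an inhibitor of caspase activation, read 1.39 and 1.47, 0.95 and 0.99, and 1.46 and 1.58 in repeats 1 to 3. Its forward and reversed arrays lay close together in every repeat, and it rose 2.47-fold (1.31 ± 0.24 SE, n = 3 pairs; limma adjusted p = 0.0125). Birc6, a giant inhibitor of apoptosis protein with ubiquitin ligase activity, had pair values of 1.28, 0.88 and 1.25 and rose 2.19-fold (1.13 ± 0.21 SE; limma adjusted p = 0.0125). The list's median was -0.04.

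Usp19, a deubiquitinase, had the largest rise. It read 2.00 and 1.53 in repeat 1, 1.07 and 0.93 in repeat 2 and 4.46 and 1.30 in repeat 3, above 0 on all 6 arrays but with 1 array far from the rest. It rose 3.69-fold (1.88 ± 0.28 SE, n = 3 pairs; limma adjusted p = 0.00402), and without repeat 3 it was at 1.38 and still passed. A830082K12Rik, a gene known by its clone name, rose 2.96-fold (1.56 ± 0.24 SE, n = 3 pairs; limma adjusted p = 0.00402). Brip1os, an antisense transcript next to the DNA repair gene Brip1, was represented by 2 probes and both rose, at 1.42 ± 0.28 (n = 3 pairs) and 1.23 ± 0.25 (n = 2 pairs). The first of these did not pass without repeat 3 (1.00; limma adjusted p = 0.104) and the second with the experiment ID range as a block (0.67; limma adjusted p = 0.358).

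Exosc2, a subunit of the RNA exosome, rose 2.52-fold with array values from 0.96 to 1.94 (1.33 ± 0.21 SE, n = 2 pairs; limma adjusted p = 0.00734). Lima1, an actin-binding LIM protein, rose 2.44-fold (1.29 ± 0.26 SE, n = 2 pairs), or 0.76 with the experiment ID range as a block (limma adjusted p = 0.321). The rises also held Pias2, a SUMO ligase (1.20), Nfic, a nuclear factor I protein (1.14), Slc25a33, a mitochondrial pyrimidine carrier (1.10), Tent4b, a noncanonical poly(A) polymerase (1.09), Rbm34, an RNA-binding protein (1.09), and Trim65, a ubiquitin ligase (1.02; limma adjusted p = 0.0488, and 0.0555 without low calcium repeat 2). Srebf2, the master regulator of sterol synthesis genes, rose 1.96-fold (0.97 ± 0.22 SE, n = 2 pairs, limma adjusted p = 0.0433). It was the single call among 21 probes for sterol, fatty acid and barrier lipid genes, whose median was -0.11. With 1.85% called over all members, 1 call is no result about that list. Odc1, the first enzyme of polyamine synthesis, rose by 0.83 and Mfn1, a mitochondrial fusion protein, by 0.75, both named after their values were seen.

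Several named rises rested on 1 of several probes. Further probes of Pias2 (-0.28 and 0.22), Tent4b (-0.36 and 0.19), Rbm34 (-0.24), Herc4 (-0.45) and Mfn1 (-0.24) were not called. Of the 13 genes with several member probes and at least 1 call, all probes were called for Klk7 and Brip1os alone. The 36 unlisted probes that rose spanned 0.68 to 1.75 (median 1.14), and the 10 unlisted probes that fell spanned -1.28 to -0.72.

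The remaining lists held no called member, beside 1.85% called over all members: cytokines and chemokines (21 probes), EGF receptor ligands and receptors (4), Notch signalling (11), retinoid handling (14), DNA replication (31), interferon response (23), glycolysis and hypoxia (18), ribosomal proteins (20), oxidative phosphorylation (33) and the proteasome (27), all by limma over all members. Their medians lay between -0.10 and 0.21. Of the probes in them the smallest p belonged to Tyms, thymidylate synthase (0.77; limma adjusted p = 0.122), Pgk1, a glycolytic kinase (-0.58; limma adjusted p = 0.123), and Hmox1, haem oxygenase (-0.63; limma adjusted p = 0.146).

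Markers of other cell types that a skin culture could hold made up 7 lists with 58 probes, counted by probe and not tested as sets. Of these probes 1 fell and none rose, a share near the 1.85% called over all members and so no result about these markers. No marker of fibroblasts (9 probes, median 0.05), melanocytes (2, 0.14), endothelium (8, -0.02), macrophages and dendritic cells (8, 0.14), T cells (5, 0.15) or hair follicle and sebaceous gland (11, -0.13) was called. The fall was Acta2, smooth muscle actin, among 15 muscle markers (median -0.12). It read -0.58, -0.73, -0.89 and -1.94 on the arrays of repeats 1 and 2 (-1.04 ± 0.22 SE; limma adjusted p = 0.0323). The other sarcomeric and smooth muscle actins were also low without passing: Actc1 was at -0.92 (limma adjusted p = 0.0616), or 0.0496 and 0.0365 (adjusted p) with repeat 3 of high or of low calcium left out, and Acta1 at -0.76 (limma adjusted p = 0.129), or -1.16 when high calcium repeat 3 was left out (limma adjusted p = 0.0157). Tpm2 (-0.65), Myod1 (-0.59), Des (-0.45), Myh11 (-0.12), Tagln (-0.03), Myog (0.13) and Myh2 (0.40) did not pass. Of the 15 muscle probes 12 were below 0 and 3 above. The Lef1 probe of the hair follicle list, at -0.82 (limma adjusted p = 0.0527), kept that value and passed when high calcium repeat 3 was left out (0.0450), when any 1 low calcium repeat was (0.0409, 0.0351 and 0.0334 for repeats 1 to 3) and with the experiment ID range as a block (0.0389). The part of other cells in the falls was not tested.

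The same contrast in 0.05 mM calcium was set beside these calls. In the well-filled low calcium repeat 1, 79 of the 82 measured falls and all 57 rises had the same sign, with medians of -0.91 and 1.69. Over all members 5547 of 7303 did. That low calcium repeat shares its experiment ID range with high calcium repeats 1 and 2. Low calcium repeat 2 measured 43 of the falls, 32 with the same sign, and repeat 3 measured 31, 30 with the same sign. Of the rises they measured 14 and 9, with 14 and 7 of the same sign. Over all members 1750 of 4042 had the same sign in low calcium repeat 2 and 1754 of 2664 in repeat 3. The difference between calcium levels passed for none of the 4292 members that could be tested (0.0%). By limma 125 had an unadjusted p under 0.05, the lowest adjusted p was 0.647, and equality of the effects is not shown by this. Among the called genes the smallest p of the difference belonged to Il33, whose low calcium pair values were -0.02 and 0.88 (high minus low -1.59 ± 0.32 SE), Manba (-1.30 ± 0.28) and Jcad, which was below 0 in all 3 high calcium pairs and above 0 at 0.22 and 0.28 in low calcium (-0.96 ± 0.24). With a high calcium repeat left out or the experiment ID range as a block, the difference passed for Serping1 and Sh3bgrl2 without repeat 1 and for Serping1 without repeat 2 and with that block, both named after their values were seen. All probes shared 1 variance in the fits without high calcium repeat 1 or 2.

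Of the 84 falls with a value in low calcium, 12 were above 0 in at least 1 low calcium pair, 10 of them with a single symbol. Krt10 was at -1.32, Klk7 at -1.24 and -0.62 by probe, Ptgr1 at -0.72, Cldn1 at -1.52 and Il1f5 at -1.40 in low calcium repeat 1, the one repeat that measured them there. Sprr1a was at -1.51, -2.13 and -2.82, Flg at -1.02, -1.0 and -2.52 and Serpinb2 at -1.82, -1.10 and -1.31 in low calcium repeats 1 to 3. Cdkn1a was at -0.87 and -0.60 in repeats 1 and 2, and Serpinb5 at -1.02, -0.50 and -0.89 in repeats 1 to 3. Among those above 0 in a pair, Defb1 was at -1.17 in repeat 1 and 0.04 in repeat 2, and Sptssa at -0.86, 0.07 and -0.53 in repeats 1 to 3. Rnf11, a ubiquitin ligase named after its values were seen, fell by 1.01 in high calcium and was at -0.89 and 0.53 in low calcium repeats 1 and 2, and Manba, a lysosomal mannosidase that fell by 0.89, was at 0.13 and 0.69. Usp19, at 2.09, 0.71 and 1.04, was above 0 throughout, whereas Birc6 read 1.35, 0.69 and -0.10 and Aven 1.69 and 0.03.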

How the data were processed

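RNA of transduced primary mouse keratinocytes was labelled with Cy3 and Cy5 by the Genisphere method and hybridised to two-colour spotted cDNA arrays, per the labels' protocols. What the authors deposited was a log2 dye ratio for each probe and array, as taken here; no source states the log base. How spots were scanned, corrected for background, normalised and filtered was not given in the sources used here. There were 6 arrays a calcium level, with 3366 to 9096 of 9558 probes filled on the high calcium arrays. What limits the precision most was not tested.

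After median centring of the arrays, reversed arrays were turned and pair values were formed. The 3 high and 3 low calcium pairs entered 1 limma model (version 3.58.1, R 4.3.3; lmFit and eBayes), with Benjamini-Hochberg adjustment over 7682 members. Of the 7457 probes of all the array with a single symbol, 7368 had a gene ID found in GRCm38.p6. These took their symbol from there, whether or not it changed. The members, gene lists and naming rule were chosen with earlier results of these data known. The rule named the genes of the series title and 5 markers, the 15 largest single-symbol falls and rises, up to 4 probes of smallest p in each list and the one of smallest p in the other direction (both directions alone where none was called), and calls of 1 sign on all 6 arrays; other genes were named after their values were seen. Alternatives changed the signs, arrays, pairs, variance model, scaling, weights and blocks, and left out each repeat. The model was tested on simulated pairs with independent normal errors, spread as in the fitted model, where changed probes moved equally in every pair. Unequal spread of arrays and signal that does not turn with the dye were not simulated, so that test does not cover them.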

Additional observations from a re-analysis of the deposited data

How the results depend on the processing

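Every result rests on few arrays, and repeat 3, with few filled probes, decides several. Without turning the reversed arrays, on forward arrays alone, with the lone array of a pair kept, and with a trended and robust variance, 0 probes were called by limma (1364, 2045, 598 and 658 at an unadjusted p under 0.05), so 0 fell and 0 rose. On reversed arrays alone and with arrays scaled to the same spread 1 was called, which fell, and 0 rose (1000 and 1103 at an unadjusted p under 0.05). Under these 6 settings the number that fell was 0 in the cornified envelope, desquamation, p53 family and matrix lists. Treating arrays as replicates gave 79 calls (55 fell, 24 rose; 1 in the p53 family list). A dye term gave 35 (27 fell, 8 rose; 4 in the cornified envelope, 0 in the p53 family and 1 in the matrix list). High calcium pairs alone gave 255 (174 fell; 5 in the p53 family list), and pair weights 678 (475 fell, 203 rose; 9 in the p53 family list). Averaging probes of a gene gave 101 of 7263 (61 fell, 40 rose). Of the 60 called probes named by the rule, 23 lost their call with arrays as replicates, 39 with a dye term and 15 with averaging. The paragraphs on single genes do not mark these losses. The probes with 3 pairs gave 43 of 2015 (31 fell, 12 rose; 2 in the cornified envelope, 0 in the desquamation, 0 in the p53 family and 1 in the matrix list), fewer probes being tested. With the experiment ID range as a block 0 fell in the p53 family list and 2 in the matrix list, and the difference between calcium levels passed for 1 probe. Leaving out 1 repeat gave 30 to 186 calls (14 to 118 fell; 11 to 68 rose). In the lists 3 to 9 (cornified envelope), 0 to 3 (desquamation), 0 to 4 (p53 family) and 0 to 5 (matrix) fell, and the difference passed for 0 to 2 probes. Leaving out a low calcium repeat changes no high calcium mean. The cause of the other shifts was not tested.

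Same-numbered high and low calcium pairs deviated from their group means with correlations of -0.03, -0.11 and 0.21 over 1327 probes for repeats 1 to 3, so the numbers were not taken as pairing the samples. With the repeat number as a block 87 of 4046 probes were called (69 fell, 18 rose; 50 shared with the 142). In that block 5 fell in the cornified envelope and 1 in the desquamation list, and the difference between calcium levels passed for 2 probes, Serping1 (-1.73) and Il33 (-1.59). All probes shared 1 variance in that fit. Krt5 turned to -0.16 in the same block.

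The direction of single genes turned mostly with the signs. With the deposited signs kept, 80 of the named probes changed sign. These were Acta1 0.56, Acta2 0.30, Actc1 0.061, Aif1 0.14, Aldh1a1 -0.49, Anxa1 0.44, Anxa2 0.11, Anxa3 0.23, Anxa8 0.066, Aven -0.040, Birc6 -0.073, Casp1 0.13, Ccl27a 0.33, Cdca3 -0.34, Cdh1 0.41 and Cdkn1a 0.34. Further ones were Col4a5 0.15, Crct1 0.34, Ctnnb1 0.097, Ctsd 0.26, Cxcl14 -0.027, Cycs 0.30, Defb1 0.44, Degs1 0.16, Flg 0.29, Fos -0.022, Gadd45b 0.028, Gja1 0.039, Gsdmc2 0.29, Herpud1 0.10, Hmgcs1 0.13 and Hsp90b1 0.28. Others were Hspa1a 0.12, Hspa5 0.22, Igtp -0.25, Il1r1 -0.61, Itgb1 0.49, Jag1 0.26, Klk5 0.23, Klk7 0.087, Klk7 0.29, Lamc1 -0.87, Lce1m 0.19, Lor 0.44, Mthfd2 0.13, Myh2 -0.10, Nasp 0.14 and Nktr 0.36. The next were Notch3 -0.081, Pgk1 0.20, Pml -0.20, Psmb5 0.15, Psph 0.17, Ptgr1 0.24, Rps6 0.80, Rtkn 0.16, S100a10 0.39, S100a4 0.19, S100a6 0.21, S100a9 0.21, Sdc1 0.18, Serpina6 -1.47, Serpinb2 0.29 and Serpinb5 0.019. The last were Serpinb8 0.067, Skap2 0.13, Slc25a33 -0.20, Smc4 -0.29, Sprr1a 0.32, Sptssa 0.22, Tent4b -0.13, Tfap2a 0.48, Thbs1 0.14, Thy1 0.34, Tmem45a 0.29, Tpm2 0.13, Trim65 -0.16, Trp63 0.16, Tyms -0.43 and Ube2c 0.27. On forward arrays alone the sign turned for Ccl27a 0.15, Cycs 0.31, Hspa1a 0.40, Il1r1 -0.32, Jag1 0.33, Lamc1 -0.58, Lor 0.29, Rps6 0.47, Serpina6 -1.14, Tfap2a 0.059, Thy1 0.21 and Trp73 -0.018. On reversed arrays alone it turned for Anxa11 -0.030, Asns -0.24, Camp -0.043, Cd3d -0.097, Cdkn2d 0.063, Col1a2 -0.18, E2f3 -0.24, Eng 0.12, Ifit2 0.52, Kif20a 0.31, Krt5 -1.09, Lef1 0.25, Ndufs7 -0.063, Rps13 -0.070, Serping1 0.41, Sox10 0.17 and Ugcg 0.011. With the lone array of a pair kept it turned for Cycs 0.11, Hspa1a 0.32, Jag1 0.16, Kif20a 0.14 and Trp73 -0.083. Pair weights turned Krt5 -0.037, Lor 0.072 and Sox10 0.038, scaling to the same spread turned Krt5 -0.28 and Sox10 0.054, and the dye term turned Krt5 -0.083. The experiment ID block turned S100a4 0.068 and Trp63 0.067, and leaving out high calcium repeat 3 turned Lor 0.18 and Sox10 0.034, against ranges over the repeats left out of -0.33 to 0.18 for Lor and -0.12 to 0.034 for Sox10. The causes of these turns were not tested.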
